A study of Mus musculus with 4 samples.

Results

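The genes described here are the AP-1 and Egr early response factors of cultured mouse vascular smooth muscle cells (VSMCs): the Fos family (Fos, Fosb, Fosl1 and Fosl2), the Jun family (Jun and Junb), Atf3, and the Egr family (Egr1, Egr2 and Egr3). Members were taken by symbol from array rows that the platform annotation ties to exactly 1 gene, and 9 of the 10 had such a row, out of 22180 genes in all. The row that holds Fosl1 also carries the symbol of another gene, so Fosl1 is not reported. Each of the 9 genes had a mean level above 3.02, the median of all row means, and was therefore among the 12550 genes tested.

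The study compared 2 genotypes, with 2 arrays each. The knockout cells came from SM22α-Cre(+) Mmp14(fl/fl) Apoe(−/−) mice and the control cells from SM22α-Cre(−) Mmp14(fl/fl) Apoe(−/−) mice. Both groups thus carried floxed Mmp14, which encodes the membrane-anchored metalloproteinase MT1-MMP, lacked Apoe and had eaten a Western diet for 3 months, and only the knockouts carried Cre, expressed from the SM22α (Tagln) promoter, which is active in smooth muscle cells and not in every cell type of the vessel wall. Cells were grown from thoracic aortas stripped of adventitia and cultured for 5 days with serum, and 2 pairs of mice were used. The comparison asked which transcripts depend on MT1-MMP in these cells. Values are log2 expression after RMA, and a difference is knockout minus control on that scale.

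Early response genes are transcribed within minutes of a stimulus such as serum, a growth factor, stretch or tissue injury, and most of their RNAs decay quickly. Fos and Jun proteins join through a leucine zipper into the AP-1 dimer, which binds the motif TGANTCA, and Atf3, a stress-induced zipper protein, pairs with Jun proteins and prefers the related cyclic AMP response element TGACGTCA. Egr proteins bind GC-rich DNA through zinc fingers, and Egr1 is induced at sites of arterial injury. MAP kinases, acting on the serum response factor and its partners at CArG boxes, are a main input to Fos and Egr genes.

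The stretches before the start sites of 5 members are shown because these are genes whose knockout values lay apart from the controls, with Fos, whose values did not, for comparison. The sequences are RefSeq's for GRCm38.p6, on the strand of the gene, 120 bases ending just before the annotated start, and capitals mark matches to the motifs searched.
Fosb (chr7:19310046-19310165, minus strand): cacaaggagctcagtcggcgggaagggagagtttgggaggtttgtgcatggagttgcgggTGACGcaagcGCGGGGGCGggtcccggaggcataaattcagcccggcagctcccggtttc
Fosl2 (chr5:32136352-32136471, plus strand): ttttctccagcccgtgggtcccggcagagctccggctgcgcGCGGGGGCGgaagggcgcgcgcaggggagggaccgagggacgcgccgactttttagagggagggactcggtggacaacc
Atf3 (chr1:191183334-191183453, minus strand): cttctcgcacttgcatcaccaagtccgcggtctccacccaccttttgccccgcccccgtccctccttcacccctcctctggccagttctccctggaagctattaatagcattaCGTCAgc
Egr2 (chr10:67537446-67537565, plus strand): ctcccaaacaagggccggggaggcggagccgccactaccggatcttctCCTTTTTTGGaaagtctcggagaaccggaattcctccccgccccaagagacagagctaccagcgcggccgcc
Fos (chr12:85473770-85473889, plus strand): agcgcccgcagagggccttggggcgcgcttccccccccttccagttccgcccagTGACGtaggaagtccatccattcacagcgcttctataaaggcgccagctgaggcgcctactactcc

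A search of both strands over the 250 bases before each start covered 11 windows of 7 members (Fos, Fosb, Fosl2, Jun, Junb, Atf3 and Egr2, which has 5 annotated starts). The Egr motif GCGNGGGCG was present in 2 genes, Fosb and Fosl2, and in 4.70% of all 32851 windows. The shorter motif TGACG, which is the first part of TGACGTCA, was present in 5 genes (Fos, Fosb, Junb, Atf3 and Egr2) and in 17.8% of all windows. The CArG box was present in 4 of the 5 Egr2 windows, in no other member's window searched and in 1.47% of all windows. The Egr2 stretch above is the most upstream of these 4. Egr2 windows of neighbouring starts overlap and share a box, so the 4 windows do not hold 4 separate boxes. Sites more than 250 bases before a start, and any before Egr1 or Egr3, which had no window, were not searched. TGANTCA and TGACGTCA matched in 0 windows of the members, against 6.75% and 1.55% of all windows. These matches describe letters and were not set against any measure of binding.

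None of the 9 factors passed the genome-wide test, and the family did not move one way. Egr1 had 0.577 times the control level in the knockouts, Fosb 0.620 times and Egr3 0.710 times, while Atf3 stood at 1.85-fold and Egr2 at 1.63-fold, all without overlap between the groups. Fosl2 lay slightly lower without overlap, and Fos, Junb and Jun overlapped between the groups. In limma's fit 0 of the 9 were called at an adjusted p under 0.05, as were 0 of the 12550 genes tested (0%), and the smallest adjusted p of a member was 0.248, for Egr1. At an unadjusted p under 0.05 there were 4 members, Egr1, Fosb and Egr3 lower and Atf3 higher, against 11.7% of all genes tested (4.89% higher and 6.78% lower). The groups did not overlap for 6 members, 2 higher and 4 lower, against 44.3% of all genes (16.7% higher and 27.5% lower). The median difference over the 9 members was 0.03 and over all genes tested -0.05, whereas the median absolute difference was 0.55 for the members and 0.18 for all genes. With 2 arrays against 2, the smallest two-sided exact permutation p is 0.333, and the labels do not say which array numbers came from the same pair of mice.

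**Figure D1:**
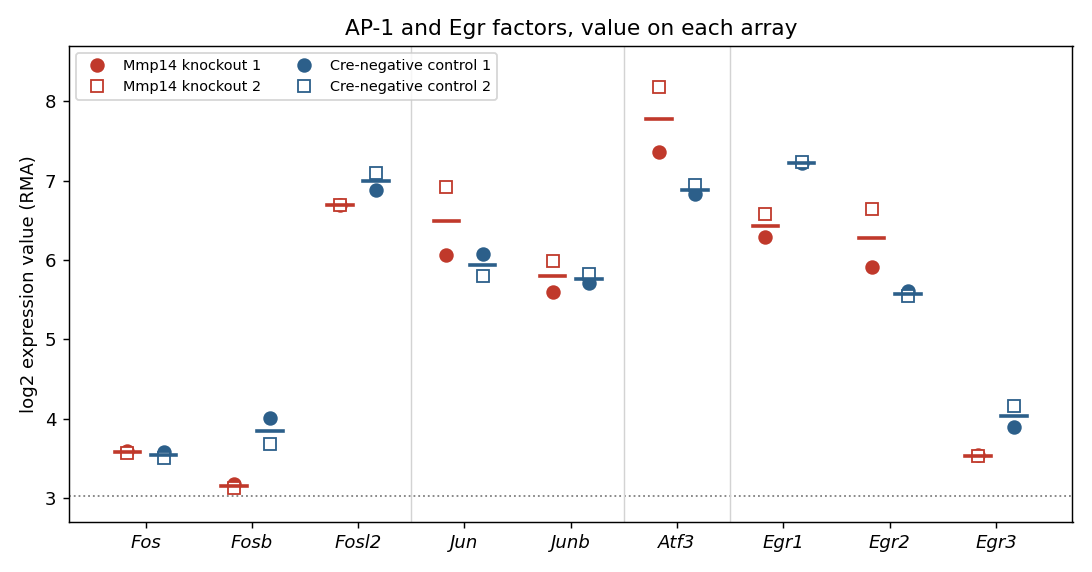
Log2 expression value of each member on each array, with Mmp14 knockout arrays in red to the left of Cre-negative control arrays in blue, circles for array 1, open squares for array 2 and a bar at the group mean (n = 2). The dotted line is the filter level of 3.02; Egr1, Fosb and Egr3 have both knockout arrays below both controls, and Atf3 and Egr2 have both above, with knockout array 2 the higher.

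The targeted gene Mmp14 read 8.27 and 8.19 in the knockout arrays and 8.71 and 9.05 in the controls, a difference of -0.65 (SE 0.17; limma, adjusted p = 0.319). Array medians ran from 3.01 to 3.05, and Pearson's r over all rows, which are not independent replicates, was 0.974 to 0.982 between arrays. All 8 smooth muscle markers were above the filter level, with a list mean of 7.61 and 6.98 in the knockout arrays and 7.30 and 6.99 in the controls. All 14 macrophage markers were higher in the knockouts (median difference 1.155), with a list mean of 8.33 and 8.59 in the knockout arrays and 7.29 and 7.32 in the controls. The groups did not overlap for 13 of these (92.9%, against 44.3% of all genes tested, 16.7% higher and 27.5% lower). Of 11 endothelial markers tested, 8 were lower (72.7%, against 58.3% of all genes tested), with a median difference of -0.69. Their list mean was 4.58 and 4.66 in the knockout arrays and 6.07 and 5.67 in the controls. In RNA of a whole culture, fewer cells of a type and less RNA per cell cannot be told apart. No cell type was assigned from the markers, and the part of either marker list in the values of the early response factors was not tested. Fibroblast markers went both ways, with 3 of 6 higher, and 1 of 7 lymphocyte markers with a row was above the filter level, Nkg7.

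In the Egr family, Egr1 and Egr3 lay lower in the knockouts and Egr2 higher. Egr1, the zinc finger factor that links growth factor and injury signals to transcription in the vessel wall, read 6.29 and 6.57 in the knockout arrays, against 7.23 and 7.23 in the controls. Both knockout values lay below both controls, by at least 0.65. The difference was -0.79 (SE 0.16, 95% interval -1.21 to -0.38), with an unadjusted p of 0.0049 and an adjusted p of 0.248 in limma. By that unadjusted p Egr1 ranked 247 among the 12550 genes tested. Removing any single array left its difference between -0.93 and -0.65.

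Egr3, a relative of Egr1 that is induced by similar stimuli, read 3.54 and 3.53 in the knockout arrays, against 3.90 and 4.16 in the controls. The groups did not overlap, and the knockout arrays were nearly equal while the controls were 0.26 apart. The difference was -0.49 (SE 0.16, 95% interval -0.90 to -0.09; limma, adjusted p = 0.364). Its level lay close to the filter level of 3.02, and no background level was measured.

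Egr2, also known as Krox20, a factor of myelinating Schwann cells and of the hindbrain that macrophages also express, read 5.91 and 6.65 in the knockout arrays, against 5.60 and 5.55 in the controls. Both knockout arrays lay above both controls, and array 2 accounted for most of the distance. The difference was 0.70 (SE 0.27, 95% interval -0.01 to 1.42; limma, adjusted p = 0.438). It was 0.33 without knockout replicate 2 and 1.07 without knockout replicate 1. Macrophage marker means of 8.33 and 8.59 in knockouts 1 and 2, against 7.29 and 7.32 in controls, stood beside these values, and their part in the Egr2 difference was not tested.

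In the Fos family, Fosb was the member furthest from the controls. Fosb, which forms AP-1 dimers with Jun proteins and whose stable splice form accumulates on repeated stimulation in brain, read 3.18 and 3.12 in the knockout arrays, against 4.005 and 3.68 in the controls. Both knockout arrays lay below both controls by at least 0.50, and both lay just above the filter level of 3.02. The difference was -0.69 (SE 0.17, 95% interval -1.14 to -0.24; limma, unadjusted p = 0.011, adjusted p = 0.295). It lay between -0.85 and -0.53 when single arrays were removed.

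Fosl2, which encodes the Fos-related factor Fra-2, read 6.70 and 6.69 in the knockout arrays, against 6.89 and 7.10 in the controls. The groups did not overlap, but the gap of 0.19 was smaller than the 0.21 between the control arrays. The difference was -0.30 (SE 0.15, 95% interval -0.68 to 0.09; limma, adjusted p = 0.516). The Egr motif printed in capitals above stands before the starts of Fosb and Fosl2, and in 4.70% of all windows. Binding of Egr proteins there was not measured, and a link of the motif to the differences was not tested.

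Fos itself, the prototype of the early response genes, was at a low level in all 4 cultures and did not separate by genotype. It read 3.59 and 3.56 in the knockout arrays, against 3.58 and 3.50 in the controls. The groups overlapped, and the difference of 0.03 (SE 0.13) had a 95% interval of -0.32 to 0.39 (limma, adjusted p = 0.944), which leaves room for shifts of that size in either direction. Counting Fos, 244 of the 12550 genes tested lay as close to the same value on all 4 arrays. The level of Fos was close to the filter level of 3.02, and no background level was measured.

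In the Jun family, Jun was high in a single knockout array. Jun, the main dimer partner of the Fos proteins, read 6.06 and 6.92 in the knockout arrays, against 6.07 and 5.80 in the controls. Knockout array 1 lay between the controls, so the groups overlapped, and knockout array 2 stood 0.99 above the control mean. The difference was 0.55 (SE 0.32, 95% interval -0.29 to 1.40; limma, adjusted p = 0.565), and without knockout replicate 2 it was 0.12. Junb, which often opposes Jun at AP-1 sites, read 5.60 and 5.98 in the knockout arrays, against 5.70 and 5.82 in the controls. The controls lay inside the range of the knockouts, and the difference was 0.03 (SE 0.18, 95% interval -0.45 to 0.51; limma, adjusted p = 0.967). Its sign turned to -0.16 without knockout replicate 2 and to -0.02 without control replicate 1.

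Atf3 had the largest difference of the members. This factor is induced by amino acid shortage, unfolded proteins and cytokines, and in mouse macrophages it restrains inflammatory genes. It read 7.37 and 8.18 in the knockout arrays, against 6.83 and 6.94 in the controls. Both knockout arrays lay above both controls, by at least 0.42, with array 2 furthest. The difference was 0.88 (SE 0.30, 95% interval 0.11 to 1.66; limma, unadjusted p = 0.0333, adjusted p = 0.385). It was 0.48 without knockout replicate 2 and 1.29 without knockout replicate 1. The macrophage marker mean, 8.33 and 8.59 in knockouts and 7.29 and 7.32 in controls, was likewise higher in the knockouts, and its part in the Atf3 difference was not tested.

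**Figure D2:**
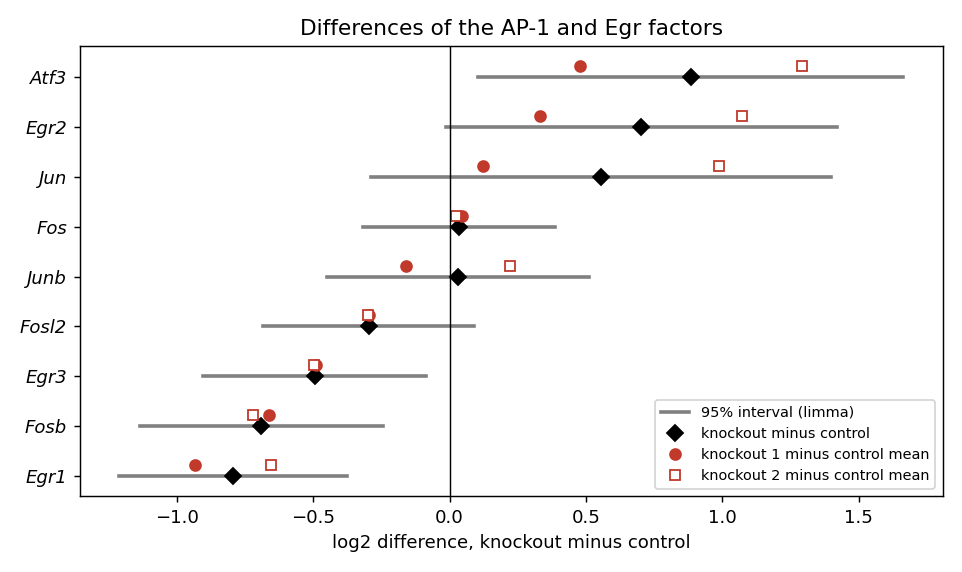
Log2 difference of each member, knockout minus control, as a black diamond with its 95% interval from limma in grey, sorted from highest at the top to lowest; red circles and open red squares give knockout arrays 1 and 2 minus the control mean. Jun, Egr2 and Atf3 have their 2 knockout arrays 0.74 to 0.87 apart, while those of Fos, Fosb, Fosl2 and Egr3 lie within 0.06 of each other.

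The members thus fell into patterns by how the knockout arrays related to each other. Knockout array 2 exceeded knockout array 1 by 0.87 for Jun, 0.82 for Atf3 and 0.74 for Egr2, by 0.38 for Junb and by 0.28 for Egr1, and fell short of it by at most 0.06 for the others. The macrophage marker mean was 8.33 in knockout 1 and 8.59 in knockout 2, and the smooth muscle marker mean was 7.61 and 6.98. Single macrophage markers ranged from Itgam, at 6.41 in knockout 1 and 8.02 in knockout 2, to Adgre1, at 7.92 and 7.59. The part of either marker list in these patterns was not tested. The 2 control arrays were within 0.33 of each other for every member. The count of members at an unadjusted p under 0.05, 4 with all arrays, was 2 without knockout replicate 2, 2 without control replicate 2 and 5 without knockout replicate 1. Egr1 and Fosb were the 2 left in both smaller counts, and both were under that threshold in each of the 4 fits that left out an array.

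**Figure D3:**
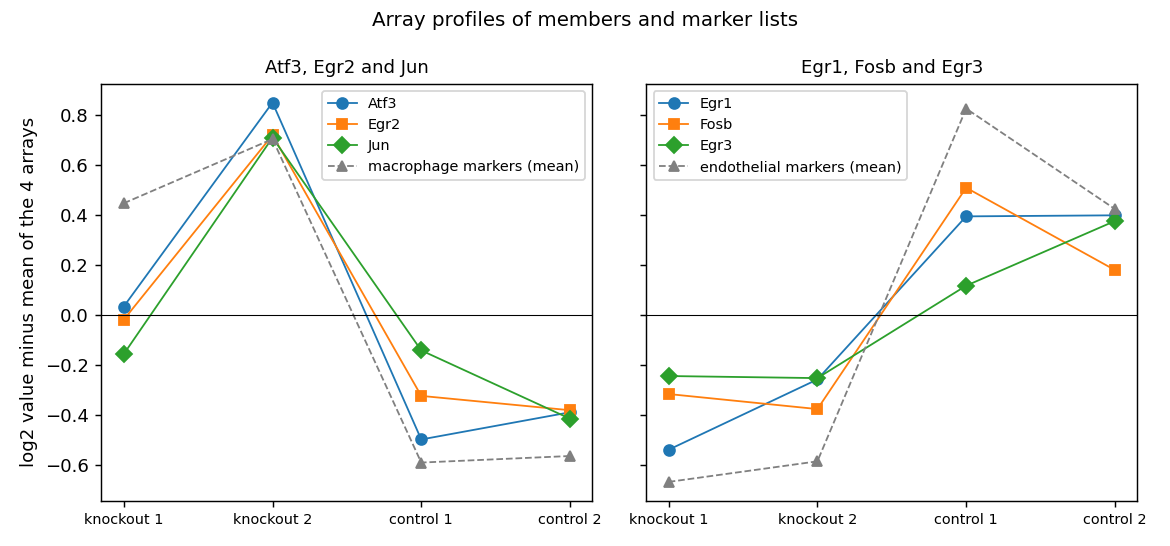
Log2 value minus the mean of the 4 arrays, by array, for Atf3, Egr2 and Jun with the mean over 14 macrophage markers (left) and for Egr1, Fosb and Egr3 with the mean over 11 endothelial markers (right); marker means are grey and dashed. On the left Jun, Egr2 and Atf3 are at -0.16, -0.02 and 0.03 in knockout 1, where the macrophage mean is 0.45, and at 0.71 to 0.85 in knockout 2, where it is 0.70; on the right all 3 factors are below 0 in both knockouts and above 0 in both controls.

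Likeness of pattern was measured as the Euclidean distance between centred log2 values over the 4 arrays, in log2 units. The genes nearest to Egr1 were Alg14, Sfrp2, Fbxl7, Ddx19b and Gpr153, at 0.0834 to 0.114, where Egr1 itself lay 0.819 from a flat line. The genes nearest to Fos were Prdm2, Ankzf1, Cdc42, Rprml and Lamtor1, at 0.00761 to 0.0211, and Fos lay 0.0711 from a flat line. Nearest genes were also looked up for the other members, of which Atf3, Egr2 and Jun were picked for naming after their values were seen. They were Tmem154, Wdr91, Msrb1, Acox3 and Sirpb1a for Atf3 (0.044 to 0.143) and Golph3l, Cd300lf, Cyth1, Gna15 and Tbxas1 for Egr2 (0.042 to 0.113). For Jun they were Tlr1, Creg1, Pygl, Cnr2 and Ubash3b (0.0433 to 0.107). Those of the remaining members are not given. Over 4 arrays such a distance is a description and carries no test.

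Other leucine zipper factors of the AP-1, ATF/CREB and Maf families went both ways. Of 17 tested, 9 were higher and 8 lower in the knockouts, with a median of 0.01, and 0 were called. At an unadjusted p under 0.05 there were 4 (23.5%, against 11.7% of all genes), of which 3 were higher. Maf, a large Maf protein of macrophages and lens, read 8.47 and 8.31 in the knockout arrays, against 6.63 and 7.35 in the controls, a difference of 1.40 (SE 0.27; limma, adjusted p = 0.239). Batf, a leukocyte AP-1 factor that lacks an activation domain, read 4.46 and 5.42 in the knockout arrays, against 3.77 and 3.67 in the controls, a difference of 1.22 (SE 0.34; limma, adjusted p = 0.335). Creb5 differed by 0.63 and Jdp2, a repressive Jun partner, by -0.61, both without overlap. Jund, the constitutive Jun protein, differed by -0.09 with overlapping groups; it was named after its value was seen.

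Among the Egr co-regulators, Nab2, a corepressor that binds Egr proteins and is itself an Egr target, read 6.28 and 6.23 in the knockout arrays, against 6.79 and 6.53 in the controls. The groups did not overlap, and the difference was -0.40 (SE 0.16; limma, adjusted p = 0.438). Nab1 and Egr4, the other tested genes of this list, differed by 0.06 and 0.18 with overlapping groups.

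Other immediate early genes went both ways, and 0 of 30 tested were called. Of these, 20 were lower (66.7%, against 58.3% of all genes tested) and 10 higher, with a median of -0.12, against -0.05 for all genes tested. The groups did not overlap for 19 genes (63.3%, against 44.3% of all genes), 14 lower and 5 higher, and 4 had an unadjusted p under 0.05 (13.3%, against 11.7% of all genes). Nr4a2, an orphan nuclear receptor, differed by -0.85 (SE 0.36), Klf4, a factor of smooth muscle phenotype switching, by -0.78 (SE 0.26), and Dusp5, a nuclear phosphatase of ERK, by -0.67 (SE 0.28). Btg1, an antiproliferative gene, differed by 0.77 (SE 0.36), with knockout arrays at 4.89 and 5.93 and controls at 4.63 and 4.64, so that knockout array 2 again stood furthest out. Nr4a2, Klf4, Dusp5 and Btg1 had adjusted p-values of 0.385 to 0.495 in limma. They were named by size of difference without overlap, and only Klf4 was among the 4 genes with an unadjusted p under 0.05.

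The upstream kinases and serum response partners had 12 of 19 tested genes lower (63.2%, against 58.3% of all genes) and a median of -0.07, against -0.05, so that the list as a whole lay close to all genes. None was called (0 of 19), and 4 had an unadjusted p under 0.05 (21.1%, against 11.7%). Mapk13, the delta form of the stress kinase p38, read 4.75 and 5.37 in the knockout arrays, against 6.58 and 6.58 in the controls, a difference of -1.52 (SE 0.24; limma, adjusted p = 0.187). Map2k3, a kinase that activates p38, differed by -0.69 (SE 0.14), Elk3, a ternary complex factor that partners the serum response factor, by -0.57 (SE 0.14) and Map3k1 by 0.55 (SE 0.17), all without overlap. RNA levels of kinases carry no measure of their activity.

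Genes reported as targets of AP-1 or Egr1 had 11 of 18 tested members lower (61.1%, against 58.3% of all genes) and a median of -0.10, with 0 called and 3 at an unadjusted p under 0.05 (16.7%, against 11.7%). The leukocyte adhesion molecules Vcam1 and Icam1 differed by -1.20 (SE 0.18; limma, adjusted p = 0.172) and -0.40 (SE 0.14), the collagenase Mmp13 by -1.20 (SE 0.51) and the urokinase receptor Plaur by -0.63 (SE 0.20). These 4 had no overlap between the groups, which held for 6 of the 18 members (33.3%, against 44.3% of all genes). Vcam1 and Icam1 are also made by endothelial cells. The endothelial marker mean was 4.58 and 4.66 in the knockout arrays and 6.07 and 5.67 in the controls, and its part in these differences was not tested.

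Heat shock genes, which are induced together with early response genes when cells are dissociated or stressed, had 8 of 11 tested members lower (72.7%, against 58.3% of all genes), with a median of -0.15, 0 called and 1 at an unadjusted p under 0.05 (9.09%, against 11.7%). The groups did not overlap for 6 (54.5%, against 44.3%). Hspb1, a small heat shock protein abundant in smooth muscle, differed by -0.65 (SE 0.21), and Hsph1, Hspd1 and Hspe1 by -0.36, -0.21 and -0.16, all without overlap. The list mean was 7.81 and 7.95 in the knockout arrays and 8.005 and 8.12 in the controls.

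**Figure D4:**
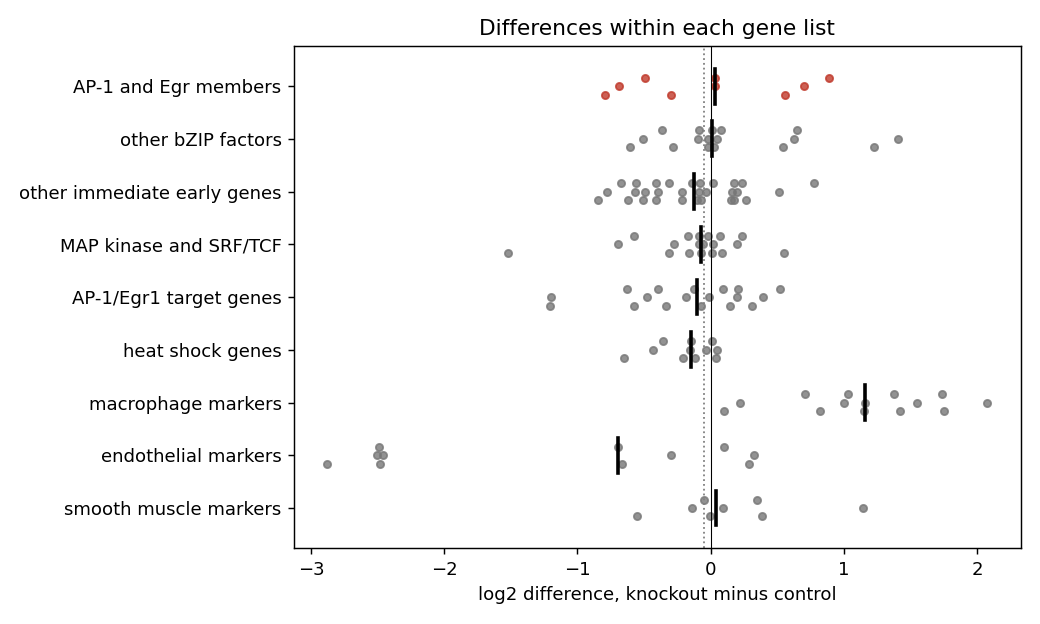
Log2 differences, knockout minus control, of the tested genes in each list, 1 point per gene spread vertically for legibility, with the list's median as a black bar and the median of all genes tested, -0.05, as a dotted line. The 9 AP-1 and Egr members (red) lie on both sides of 0, from -0.79 to 0.88. The macrophage markers all lie above 0 and 8 of 11 endothelial markers below, where 58.3% of all genes tested lie.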

How the data were processed

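Total RNA of 2 knockout and 2 control VSMC cultures was hybridised to Mouse Gene ST arrays, per the labels. The deposited values are log2 expression per transcript cluster after RMA, per the submitters' processing notes; no version, chip definition or build is stated there, and the log base was read from the range, 1.17 to 12.4. Of 41345 rows, 23521 had 1 symbol in the platform annotation, 1814 several and 16010 were not listed and are unnamed here. The row with the highest mean was kept for each gene, and genes with a mean under 3.02 were left out (9630 of 22180).

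Differences were fitted with limma 3.58.1 (R 4.3.3, lmFit and eBayes) without covariates, and p-values were adjusted by Benjamini-Hochberg over the 12550 genes tested. The fit was tested on simulated data. Of 50 genes given a log2 change of 1, 5 were called, and of 50 given a change of 2, 38 were called. The same run had 8 false calls. The largest member difference in the real data was 0.88, so members lay in a range where few changes would be called. Arrays of a group differ in animal, culture and hybridisation at once, and the p-values cover that joint spread. Depth has no counterpart on arrays; precision is limited by their number.

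The members and gene lists, and the motifs, were chosen with earlier results of these data or with the sequences known. All members and Mmp14 were named, with up to 4 genes per other list by largest absolute difference without overlap, and the 5 nearest genes to Fos and Egr1. Symbols missing under the list name were looked up by synonym. No set test was run. Alternatives were the array number as a block, other filters, normalisations, row choices and variance models, and each array left out. The deviations of same-numbered arrays had a correlation of 0.0454 over tested genes. With so few arrays per group, that value cannot decide whether same-numbered arrays came from the same pair of mice. The labels do not decide it either, so pairing remains unknown.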

Additional observations from a re-analysis of the deposited data

How the results depend on the processing

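Across 13 alternatives, 4 of which left out 1 array, limma called 0 genes and 0 members, and the smallest adjusted p of a member was 0.108. Of the 114 member differences recomputed, 111 kept their sign, and 3 turned: Fos ran from -0.0071 to 0.077 and Junb from -0.16 to 0.22 when single arrays were left out. The block, the filters, the row choice and the variance models left every member's difference unchanged. Only the normalisations and the left-out arrays could therefore turn a sign, and the count of 111 is no measure of stability. With the array number as a replicate block, 1527 genes had an unadjusted p under 0.05 and 5 members did, and no call changed. The count of genes was 929 with the 75th percentile filter, which tests 6787 genes, and 975 to 1535 when single arrays were left out. The members' median was 0.29 with that filter, which keeps 6 of them, and -0.16 to 0.023 without single arrays, the lowest without knockout replicate 2. Without single arrays 2 to 5 members had an unadjusted p under 0.05. Fos, Fosb and Egr3 lay close to the filter level of 3.02, and no background level was measured.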
